A study of Lycium barbarum and Lycium ruthenicum with 30 samples.

Results

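The 200 unigenes described here were highest at the mature fruit stage in both red and black wolfberry, out of 326276 unigenes in the deposited table. A unigene is a cluster of assembled transcripts that stands for a gene. They were chosen by their measured values in these same libraries. For each species, the mean of log2(FPKM + 0.5) at S5, less the highest of the means at S1 to S4, was taken as the rise at S5. FPKM, the unit of the table, counts fragments relative to transcript length and to the mapped reads of each library. Unigenes needed an FPKM of 5 or more in all 6 S5 libraries, and an S3 mean less than 1 log2 unit above the S2 mean in both species, which 15782 did. Of these, 2373 were highest at S5 in both species, and the 200 with the largest values of the smaller of the 2 rises were taken. The rise at S5 is therefore how the unigenes were selected and is given as a description, with no test.

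Fruit RNA was sequenced from *Lycium barbarum* (LB, red wolfberry) and *Lycium ruthenicum* (LR, black wolfberry) at 5 stages, namely young (S1), green (S2), colouring (S3), immature (S4) and mature fruit (S5), with 3 libraries per species and stage from the fruit of different trees. LB shrubs were cultivated and watered in a nursery in Ningxia, and LR shrubs grew wild in a saline desert of Inner Mongolia, so a difference between LR and LB cannot be told apart from one of place or watering. LB5-2 stands for the library numbered 2 of LB at S5, and likewise for the others. The sample titles and the codes of the deposited columns give the species the opposite way round, and the code was followed here, with R as LB and B as LR. Under that code leucoanthocyanidin dioxygenase (TRINITY_DN68066_c0_g2), an enzyme of anthocyanin synthesis, was at 2757, 2358 and 3730 FPKM in mature fruit of the black species and at 1.46, 1.46 and 1.00 FPKM in that of the red one.

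Wolfberries belong to the nightshade family, as tomato does. In fleshy fruits of this family ripening brings the loosening of cell walls, the build-up of pigments, sugars and aroma compounds, and changes in the waxy cuticle that covers the fruit. RNA of a whole fruit is a mixture of skin, flesh and seed, and whether a level changed through the number of cells of a type or through the RNA per cell cannot be told apart.

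In LB the median unigene of the 200 lay at a mean of 16.7 FPKM at S1, 16.3 at S2, 17.9 at S3 and 23.5 at S4, and at 46.7 FPKM at S5. In LR the medians were 10.5, 11.6, 10.9 and 11.2 FPKM from S1 to S4, and 34.1 FPKM at S5. On this scale the median changed little up to S4 in LR and was higher at S4 than at S3 in LB. After the scaling between libraries described further on, the median change of the 200 from S1 to S4 was 0.88 log2 units in LR, where it was 0.10 as deposited, and 0.75 in LB, where it was 0.47. Together the 200 unigenes made up 0.306% ± 0.0083 of all FPKM in LB at S1 (SD, n = 3), 0.529% ± 0.158 at S4 and 1.12% ± 0.116 at S5. In LR they made up 0.130% ± 0.0102 at S1, 0.234% ± 0.0091 at S4 and 1.03% ± 0.142 at S5. By library, the share at S5 was 1.19%, 0.988% and 1.19% in LB and 1.10%, 1.12% and 0.863% in LR. All 6 values lay above that of every earlier library, the highest of which was 0.644% in LB4-2.

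**Figure D1:**
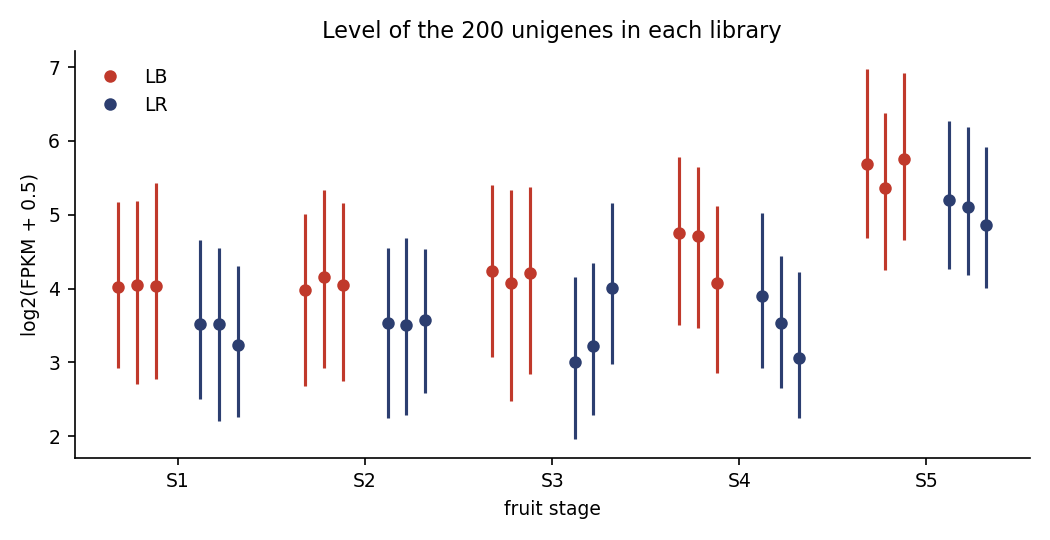
Level of the 200 unigenes as log2(FPKM + 0.5) in each of the 30 libraries by fruit stage. Points are the median over the unigenes and bars run from the lower to the upper quartile. The S5 medians, 5.36 to 5.76 in LB and 4.86 to 5.20 in LR, lie above the medians of every earlier library of the same species.

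The rise at S5 ranged from 0.63 to 2.88 log2 units in LB with a median of 0.89, and from 0.63 to 3.75 in LR with a median of 1.12. Over all 15782 unigenes that met the conditions the medians were -0.36 in LB and 0.02 in LR. Of the 200, 49 rose by 1 or more in both species, 73 did so in LB and 119 in LR. The last unigene taken, TRINITY_DN100344_c1_g1, had a smaller rise of 0.6325 and the first left out, TRINITY_DN95413_c1_g1, of 0.6319, so the end of the list marks no gap in the values. On the deposited scale all 3 LB libraries of S5 lay above all 12 earlier LB libraries in 108 unigenes. The same held in LR in 121, and in both in 64. The rise was the larger in LR in 140 unigenes and in LB in 60, which is close to the 64.0% with a larger rise in LR among all 2373 that were highest at S5 in both. It exceeded that of the other species by 1 or more in 29 unigenes of the first kind and in 2 of the second.

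TRINITY_DN81579_c2_g2, for which no annotation was read here, had the largest smaller rise. Its LB libraries lay between 1.29 and 5.71 FPKM from S1 to S4 and at 20.5, 14.3 and 44.2 FPKM at S5. Its LR libraries lay between 0 and 7.87 FPKM from S1 to S4 and at 15.3, 24.2 and 36.0 FPKM at S5. No S5 library overlapped an earlier one of the same species, and the rises were 2.88 in LB and 2.20 in LR. TRINITY_DN92347_c3_g1, the next, was at 68.7, 51.8 and 16.5 FPKM in LB at S4 and at 268, 55.2 and 214 FPKM at S5, so that LB5-2 fell below LB4-1. In LR it went from 35.7, 25.8 and 29.2 FPKM at S4 to 170, 170 and 116 FPKM at S5 without overlap.

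The most abundant of the 200 at S5 was TRINITY_DN67997_c5_g1, also without annotation here. In LB it was at 1281, 1150 and 1567 FPKM at S4 and at 2934, 5551 and 2761 FPKM at S5. In LR it was at 296, 534 and 404 FPKM at S4 and at 7879, 5880 and 4933 FPKM at S5, above each of the 12 earlier LR libraries, among which LR2-3 stood out at 2484 FPKM. TRINITY_DN80199_c7_g1 followed, with 2926, 1268 and 3555 FPKM at S5 in LB and 3785, 5644 and 4325 FPKM in LR. Its LB values overlapped those of earlier stages, since LB3-2 was at 2654 FPKM and LB4-2 at 2226 FPKM, whereas its LR values did not.

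The approach to S5 differed among the unigenes. The highest mean before S5 was at S4 in 94 unigenes in LB and in 71 in LR, and at S4 in both in 41. It was at S1, S2 and S3 in 45, 19 and 42 unigenes in LB, and in 45, 50 and 34 in LR. The stage was the same in both species in 68 of the 200. The 200 came from 189 components of the assembly, 11 of which held 2 of them, and those pairs may share reads.

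Single libraries weighed on the choice. At S5, LB5-2 was the lowest of the 3 LB libraries in 118 of the 200 and LR5-3 the lowest of the 3 in LR in 117. At S4, LB4-3 was the lowest in 135 and LR4-3 in 138, while LR4-1 was the highest in 146. The median SD between the 3 libraries on the log2 scale was 0.44 for the 200 in LB at S5 against 0.30 for all that met the conditions, and 0.37 against 0.26 in LR. When the choice was repeated without 1 library, between 137 and 196 of the 200 were taken again, fewest without LB5-2 (137), LR5-3 (145) and LB4-3 (154), and 134 were taken again without LB4-3 and LB5-2 together. Without LB4-3 alone, 197 of the 200 were still highest at S5 in both species.

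The rise was also read in S5 libraries that took no part in the choice. For each S5 library in turn, 200 unigenes were chosen from the other 29 libraries, and their level in the left-out library was set against the highest of the means at S1 to S4 of that species. In LB5-1, LB5-3, LR5-1 and LR5-2 the level was above that mean in 187, 183, 189 and 188 of the 200, with median differences of 0.87, 0.89, 1.26 and 1.08 log2 units. In LR5-3 it was above in 158, or 79.0%, with a median of 0.66, and in LB5-2 in 125, or 62.5%, with a median of 0.22. Among all unigenes that met the conditions without the library, 27.9% were above in LB5-2 and 47.7% in LR5-3, and 25.3% to 57.5% in the other 4. The libraries of S1 to S4 served both for the choice and for this comparison, which fixes part of the gap to all unigenes, so the values show how the 6 libraries differ, with LB5-2 the lowest.

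FPKM sums to a similar total in each library, and in LR a few unigenes took much of it. There were 28 unigenes with a mean of 10000 FPKM or more in LR and less than 1% of that in LB, none of them among the 200. They held 32.6% ± 7.46 of LR FPKM at S1 (SD, n = 3), 57.5% ± 11.8 at S4 and 33.7% ± 4.63 at S5, and 0.0211% or less on average at any stage in LB. With these 28 left out of the total, the share of the 200 in LR was 0.194% ± 0.0115 at S1, 0.251% ± 0.0738 at S2, 0.352% ± 0.0584 at S3, 0.574% ± 0.138 at S4 and 1.56% ± 0.285 at S5, so that it also climbed before S5. The median of all unigenes tested was also 0.26 log2 units higher at S5 than at S4 in LR, and 0.02 in LB. When each library was scaled by the median ratio of its unigenes to their means over all libraries, a step chosen for the rises after seeing the data, the median rise fell to 0.60 log2 units in LR and 0.79 in LB. All 200 stayed above 0 in LB and 195 in LR, with a lowest value of -0.09. All 3 S5 libraries then lay above all 12 earlier ones in 92 unigenes in LB and in 70 in LR, where it was 108 and 121 as deposited. The larger rise was then in LR in 72 unigenes and in LB in 128, so the order of the species turned with the scaling, and 105 of the 200 would be taken again.

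**Figure D2:**
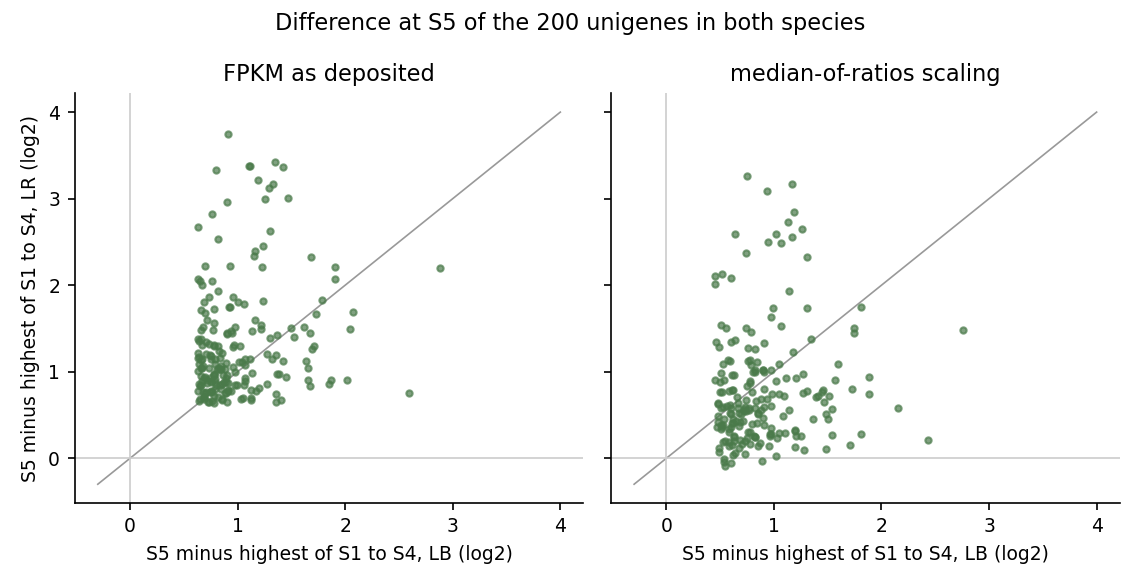
Rise at S5 in LB (horizontal axis) and LR (vertical axis) for the 200 unigenes, in log2 units, with the line of equality. Points sit above the line in 140 unigenes for FPKM as deposited (left) and in 72 after median-of-ratios scaling (right).

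**Figure D3:**
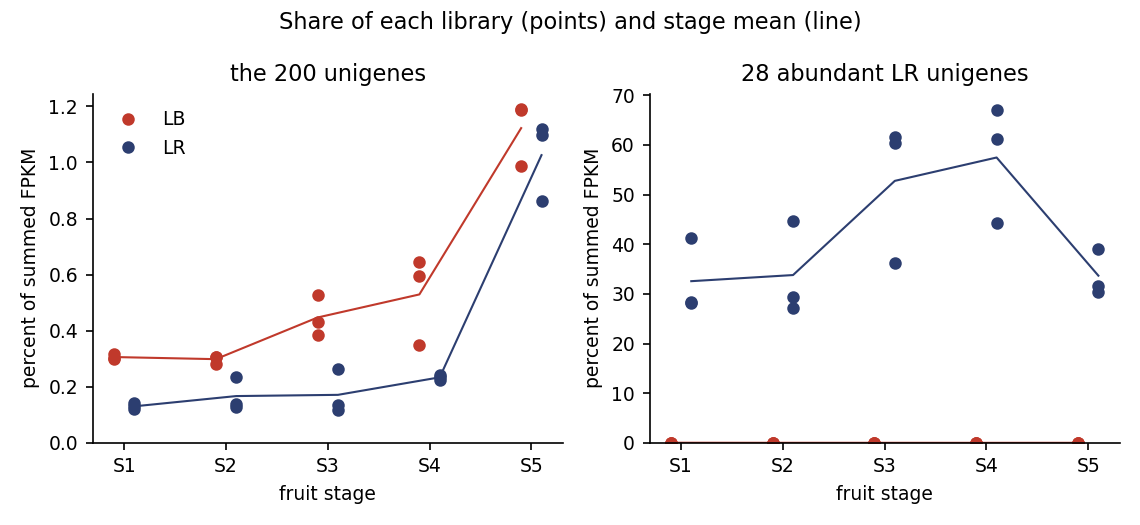
Percent of the summed FPKM of each library held by the 200 unigenes (left) and by 28 abundant LR unigenes (right), with a point per library and a line through the stage means. The share of the 200 in LR went from 0.234% at S4 to 1.03% at S5 while that of the 28 went from 57.5% to 33.7%.

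From S4 to S5 alone, 16 of the 200 passed both limits of the test in LB (limma adjusted p below 0.01, difference of 2-fold or more), all higher, where 1.22% of all 111217 unigenes tested did. In LR 55 passed, all higher, where 2.55% of all did. The selection used this contrast, so nothing is read from either count. With a single library left out, the LB count was 7 without LB4-3 and 8 without LB5-1 or LB5-3, and the LR count was 21 without LR4-2, 13 without LR4-3 and 11 without LR5-1 or LR5-2. After scaling the LB count was 18, where 1.4% of all passed, and the LR count was 8, where 1.26% did. In a fit to only the S4 and S5 libraries of a species 0 of the 200 passed in LB and 0 in LR. Of all unigenes tested, 1 passed in LB and 0 in LR in that fit.

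Of the 200 unigenes, 8 stood in the parts of the study's pathway lists that could be read, which hold 539 unigenes in 50 lists, and none stood among its phenylpropanoid unigenes. The lists were built by the study from these libraries. They name the pathway but not the enzyme of a unigene, so the roles given next are those of the pathways.

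Cutin, suberine and wax synthesis makes the polymers and waxes of the cuticle, and its member TRINITY_DN77055_c1_g2 was at 12.5, 9.88 and 16.1 FPKM in LR at S4 and at 127, 131 and 136 FPKM at S5. In LB it was at 19.8, 18.4 and 7.46 FPKM at S4 and at 33.1, 12.5 and 36.1 FPKM at S5. The LR libraries of S5 stood close together and far above all earlier ones, while LB5-2 fell below LB4-1 and LB4-2. The rise was 3.33 log2 units in LR and 0.80 in LB. Of the 9 unigenes read in that list, 2 passed upward and 1 downward from S4 to S5 in LR and none passed in LB.

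Fatty acid elongation makes the very long chains from which waxes are built, and TRINITY_DN94767_c2_g1 of that list was at 1.31, 1.49 and 6.27 FPKM in LR at S4 and at 6.75, 25.4 and 33.1 FPKM at S5. In LB it was at 34.1, 38.2 and 2.41 FPKM at S4 and at 35.9, 17.5 and 28.4 FPKM at S5. The LB ranges overlapped, LB4-1 and LB4-2 both lay above LB5-2 and LB5-3, and the LB rise was 0.64. TRINITY_DN73206_c3_g1 of the same list was at 10.5, 11.4 and 19.9 FPKM in LR at S4 and at 25.1, 53.5 and 57.9 FPKM at S5, and at 36.3, 118 and 30.1 FPKM in LB at S4 and at 91.2, 52.7 and 107 FPKM at S5. LR1-1, at 28 FPKM, lay above the lowest LR library of S5, and in LB the ranges of S4 and S5 overlapped. None of the 17 unigenes read in the list passed from S4 to S5 in either species. Their median change was 0.89 log2 units in LR and 0 in LB, where that of all unigenes tested was 0.26 and 0.02.

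TRINITY_DN72799_c6_g1 stood in the list of alpha-linolenic acid metabolism, the route that leads to jasmonates, in both species, and in that of fatty acid metabolism. It was at 151, 101 and 58.8 FPKM in LB at S4 and at 413, 177 and 401 FPKM at S5. In LR it was at 41.6, 41.4 and 24.3 FPKM at S4 and at 108, 118 and 71.3 FPKM at S5. All S5 libraries lay above all earlier ones in each species, with rises of 1.67 in LB and 1.44 in LR. None of the 17 unigenes read in the LR list of alpha-linolenic acid metabolism passed upward from S4 to S5, and 1 in LB and 2 in LR passed downward. In the LB list of that pathway none of 17 passed in LB and 1 passed downward in LR. Of the 18 unigenes read in the list of fatty acid metabolism, 1 passed downward in LB and 2 passed upward in LR.

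TRINITY_DN82512_c3_g1 stood in the list of pentose and glucuronate interconversions, which holds enzymes that degrade pectin. It was at 23.7, 28.3 and 27.7 FPKM in LB at S4 and at 103, 90.4 and 101 FPKM at S5, without overlap with any earlier stage. In LR it was at 59.4, 45.9 and 21.6 FPKM at S4 and at 125, 79.1 and 40.0 FPKM at S5, so that LR5-3 lay below LR4-1 and LR4-2. Of the 18 unigenes read in that list, 1 passed upward from S4 to S5 in LB and 1 in LR. TRINITY_DN93851_c0_g1 stood in the lists of other glycan degradation, glycosaminoglycan degradation, glycosphingolipid synthesis of the ganglio series and galactose metabolism. It was at 15.1, 11.8 and 6.11 FPKM in LR at S4 and at 54.1, 45.6 and 37.0 FPKM at S5, and at 36.0, 26.2 and 18.1 FPKM in LB at S4 and at 48.3, 27.6 and 64.2 FPKM at S5. Here the LR libraries of S5 stood clear of all earlier ones and LB5-2 did not stand clear of LB4-1. Of the 9 unigenes read in the list of other glycan degradation, 1 passed upward in LB and 2 in LR. In the remaining lists of this unigene none passed in LB. In LR 1 of 7, 1 of 3 and 2 of 18 passed upward, in the order given.

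TRINITY_DN84075_c0_g3 stood in the list of flavone and flavonol synthesis, which modifies colourless and yellow flavonoids, in both species. It was at 17.8, 30.4 and 24.4 FPKM in LB at S4 and at 72.0, 39.6 and 82.6 FPKM at S5, where LB5-2 lay below LB1-3 at 43.4 FPKM. In LR it was at 55.1, 37.9 and 40.9 FPKM at S4 and at 83.4, 106 and 92.0 FPKM at S5. None of the 7 unigenes read in the LR list or the 11 in the LB list passed in either species. The median change of those 7 from S4 to S5 was nonetheless 1.74 log2 units in LR, and 0.11 in LB. For the 11 it was 0.24 in LR and 0 in LB. The medians of all unigenes tested were 0.26 in LR and 0.02 in LB. TRINITY_DN81663_c2_g3 stood in the list of tryptophan metabolism, a pathway that includes a route to auxin. It was at 13.1, 15.7 and 8.15 FPKM in LB at S4 and at 20.3, 26.4 and 22.3 FPKM at S5, and at 3.28, 3.18 and 1.07 FPKM in LR at S4 and at 11.4, 9.98 and 6.21 FPKM at S5. Its S5 libraries lay above all earlier ones in each species. Of the 14 unigenes read in the list of tryptophan metabolism, 1 passed upward in LB, and 2 upward and 1 downward in LR. After scaling, the LR rise of the 8 unigenes ran from 0.15 in TRINITY_DN82512_c3_g1 to 2.59 in TRINITY_DN77055_c1_g2.

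**Figure D4:**
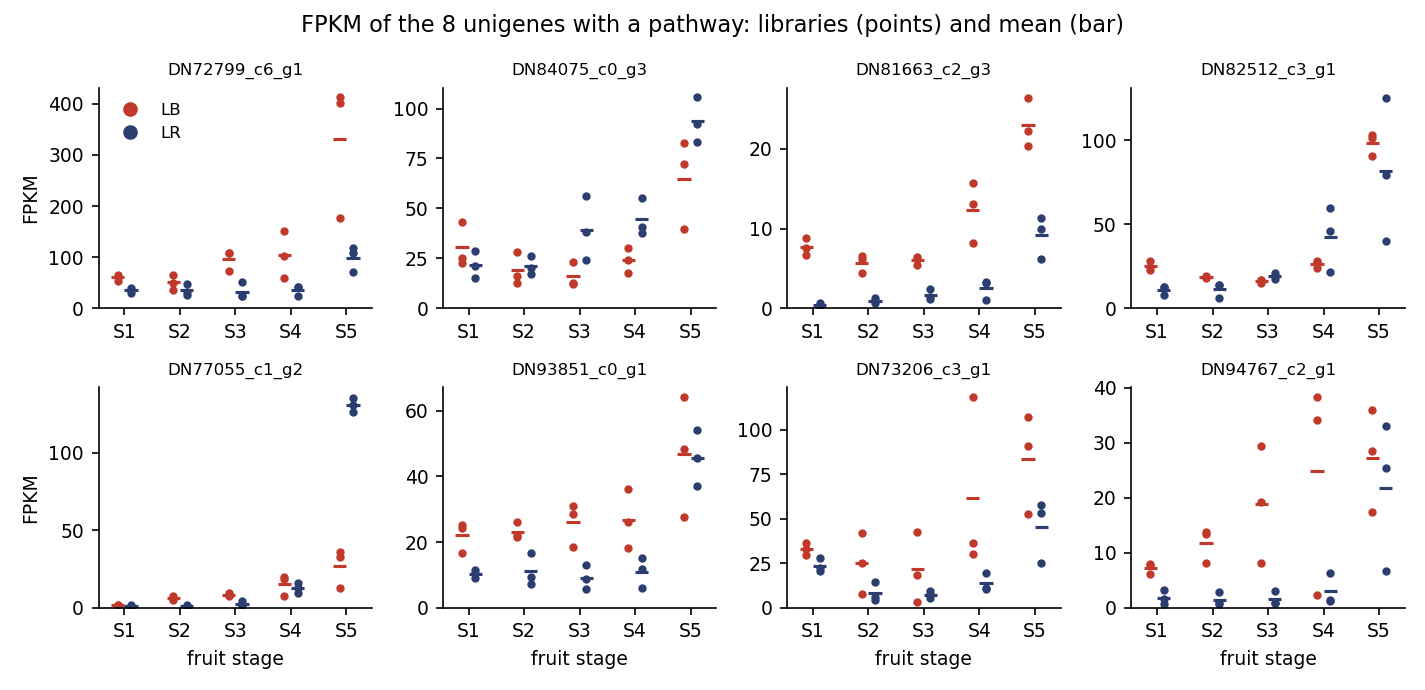
FPKM of the 8 unigenes that stood in a readable pathway list, by fruit stage, with a point per library and a bar at the mean of 3 libraries, LB in red and LR in blue. TRINITY_DN77055_c1_g2 reaches 127 to 136 FPKM in LR at S5 against 12.5 to 36.1 FPKM in LB.

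Whether the 200 also differed between the species was asked at each stage with limma over all 30 libraries and the same limits. An exact permutation of 3 libraries against 3 cannot give a p under 0.1. The calls therefore rest on a spread that is pooled over all 10 groups and that limma shares across unigenes. That spread was taken as equal in all groups. The median log2 SD of the 200 in LB was 0.25 at S1 and 0.55 at S4. A fit to only the groups compared, given further on, called fewer. At S1, 53 of the 200 differed, 7 higher and 46 lower in LR, which is 26.5% where 30.9% of all unigenes tested differed. At S2 it was 58, 12 higher and 46 lower, or 29% against 30.7% of all. At S3 it was 77, 7 higher and 70 lower, or 38.5% against 32% of all. At S4 it was 62, 3 higher and 59 lower, or 31% against 33.2% of all. At S5 it was 52, 7 higher and 45 lower, or 26% against 33.1% of all. Among all unigenes tested, 10.3%, 11.2%, 10.5%, 8.72% and 12.2% were called higher in LR at S1 to S5. Those called lower made up 20.6%, 19.6%, 21.5%, 24.5% and 21%. The total shares were near those of all unigenes, and the requirement of an FPKM of 5 or more in all 6 S5 libraries kept out unigenes missing in either species at S5.

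The excess of lower over higher calls in LR, which all unigenes tested also showed, depended on the scaling. The median LR minus LB difference of the 200 ran from -0.95 log2 units at S4 to -0.58 at S2, where that of all unigenes tested ran from -0.49 to -0.25. After median-of-ratios scaling the median of all unigenes was between 0.00 and 0.03 at the 5 stages, and that of the 200 between -0.12 and 0.09. The calls were then 21 higher and 19 lower at S1, 24 and 26 at S2, 32 and 19 at S3, 32 and 17 at S4, and 20 and 27 at S5. Of all unigenes tested, 26.2%, 27.9%, 32.2%, 31.1% and 31.3% were called at S1 to S5 after scaling, with 13930 higher and 14556 lower at S1 and 17455 higher and 16306 lower at S4. On the deposited scale 91 unigenes were called at no stage, 89 at 1 or more stages as lower only, 18 as higher only and 2 in both directions, or 45.5%, 44.5%, 9% and 1% of the 200, where the shares of all unigenes tested were 41.6%, 38.6%, 19.1% and 0.729%. Of the 59 that were lower in LR at S4, 38 (64.4%) were also lower at S5, against 65.1% among all that were lower at S4. At all 5 stages 20 were lower and 1 was higher in LR, where 8.59% and 4.88% of all unigenes were.

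**Figure D5:**
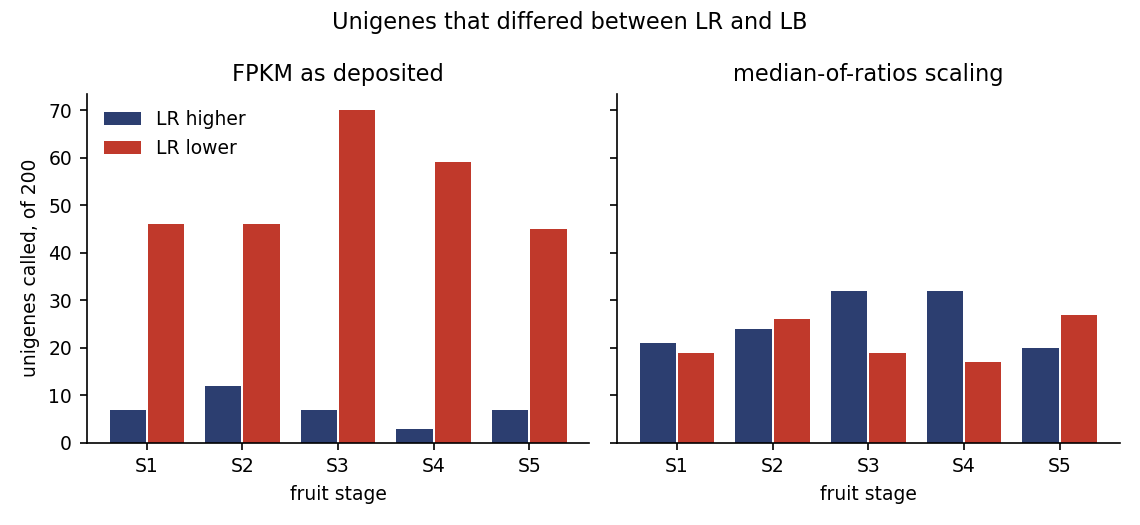
Number of the 200 unigenes called higher (blue) or lower (red) in LR than in LB at each stage, from FPKM as deposited (left) and after median-of-ratios scaling (right). At S4 the bars stand at 3 and 59 on the left and at 32 and 17 on the right.

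TRINITY_DN79728_c2_g2 was the lowest in LR at every stage. It was at 297, 317 and 352 FPKM in LB at S1 and at 436, 550 and 568 FPKM at S5, and at 3.02, 4.49 and 0.55 FPKM in LR at S1 and at 6.09, 7.73 and 5.88 FPKM at S5. The difference was -6.93 ± 0.47 at S1 and -6.20 ± 0.47 at S5 (log2, SE, limma adjusted p = 1.5e-11 and 9.1e-11). TRINITY_DN99255_c0_g3 followed, at 2003, 2489 and 2102 FPKM in LB at S5 and at 334, 171 and 73.7 FPKM in LR, a difference of -3.75 ± 0.57 (limma adjusted p = 8.7e-06). Both kept their direction and their call at each stage after scaling, at -5.72 and -3.27 at S5.

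The unigenes called higher in LR were fewer. At S5 TRINITY_DN77055_c1_g2 of the cutin, suberine and wax list stood highest, by 2.38 ± 0.42 (log2, SE, limma adjusted p = 4.9e-05), with all 3 LR libraries above all 3 LB ones. The same unigene was lower in LR at S2, by -2.01 ± 0.42, and at S3, by -1.55 ± 0.42 (limma adjusted p = 0.00038 and 0.004), and so is 1 of the 2 called in both directions. After scaling it was not called at S3 (limma adjusted p = 0.14).

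TRINITY_DN87132_c0_g4 was at 64.5, 54.7 and 17.5 FPKM in LR at S5 and at 10.03, 6.91 and 7.22 FPKM in LB, a difference of 2.25 ± 0.49 (limma adjusted p = 0.00054). It was also higher at S4, by 1.88 ± 0.49 (limma adjusted p = 0.0028), a call that was lost without LB4-2 or LR4-1. TRINITY_DN101118_c1_g4, the 1 unigene higher in LR at all 5 stages, was at 15.6, 21.3 and 26.7 FPKM in LR at S1 and at 5.38, 3.18 and 3.84 FPKM in LB, a difference of 2.22 ± 0.42 (limma adjusted p = 0.00013). TRINITY_DN93576_c2_g1 was listed at 0, 12.4 and 5.22 FPKM in LB at S1 and at 32.1, 23.4 and 70.9 FPKM in LR, and its call there was lost without LB1-1 or LR1-3.

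At S2 TRINITY_DN99741_c1_g2 stood highest, at 19.3, 21.6 and 9.60 FPKM in LR and at 1.21, 0.52 and 2.49 FPKM in LB, a difference of 3.24 ± 0.60 (limma adjusted p = 1e-04). It was also higher at S3, by 3.03 ± 0.60 (limma adjusted p = 2e-04). At S4 its limma adjusted p of 0.0086 lay near the threshold, and the call was lost in 16 of 36 alternative fits. TRINITY_DN78894_c1_g1 was at 13.9, 11.1 and 12.5 FPKM in LR at S2 and at 2.56, 1.46 and 2.14 FPKM in LB, a difference of 2.36 ± 0.49 (limma adjusted p = 0.00041). At S3 TRINITY_DN98616_c1_g2 was at 7.83, 17.5 and 22.7 FPKM in LR and at 3.19, 1.7 and 2.71 FPKM in LB, a difference of 2.35 ± 0.40 (limma adjusted p = 3.3e-05). It was called higher in LR at that stage only and lower at 1 other, and so is the other unigene called in both directions. At S5 its mean was 34.6 FPKM in LR and 168 FPKM in LB.

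Among the other pathway unigenes, TRINITY_DN81663_c2_g3 of tryptophan metabolism was lower in LR at all 5 stages, by -3.09 ± 0.32 at S1 and by -1.31 ± 0.32 at S5 (log2, SE, limma adjusted p = 3e-08 and 0.0018). After scaling it was called at S1, S2 and S4, and at S5 its adjusted p was 0.018. TRINITY_DN72799_c6_g1 of alpha-linolenic acid metabolism was lower in LR at S3, S4 and S5, by -1.67 ± 0.38 at S5 (limma adjusted p = 0.00081), of which the call at S5 was kept after scaling. TRINITY_DN84075_c0_g3 of flavone and flavonol synthesis was higher in LR at S3, by 1.25 ± 0.36 (limma adjusted p = 0.007), and by 2.10 after scaling, but the call was lost in 5 of 36 alternative fits, among them those without LB3-1, LB3-3, LR3-1 or LR3-3. TRINITY_DN94767_c2_g1, TRINITY_DN93851_c0_g1 and TRINITY_DN82512_c3_g1 were each called lower in LR at 1 or 2 of the stages S1 to S4, at none of them after scaling. The single such call of TRINITY_DN82512_c3_g1, at S1, was lost in 26 of 36 alternative fits. TRINITY_DN73206_c3_g1 was called at no stage.

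Changes before S5 were fitted next. The choice constrained them, since a high mean at any of S1 to S4 lowered the rise and S3 minus S2 was limited, so the counts stand beside those of all unigenes as a description and nothing about the 200 is read from the gap. In LB, 9 of the 200 (4.5%) changed from S1 to S2, 6 up and 3 down, where 6.31% of all unigenes tested did, and the count was 5 without LB1-2 and 4 without LB2-2. From S3 to S4 in LB 1 unigene (0.5%) changed, where 0.27% of all did. From S1 to S4 in LB 21 (10.5%) changed, all up, where 17.2% of all did, 5887 up and 13258 down. In LR none of the 200 was called from S1 to S2, where 0.466% of all unigenes were, and none from S3 to S4, where 0.0548% were. At an unadjusted p under 0.05 in limma those counts were 8 and 16. All unigenes were not counted at that level, so nothing is read from these 2 counts. From S1 to S4 in LR 15 (7.5%) changed, 13 up and 2 down, where 11% of all did, 1882 up and 10342 down. Without LR4-2 that count was 9. After scaling it was 43, all up, where 9.21% of all were called, 4276 up and 5731 down, and the LB count was 35, all up, where 15.7% of all were called, 7526 up and 9531 down.

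TRINITY_DN67050_c1_g4 had the largest early change in LB, from 2.02, 1.46 and 1.43 FPKM at S1 to 14.4, 30.5 and 21.4 FPKM at S2 and 55.0, 59.6 and 32.5 FPKM at S4. The change was 3.35 ± 0.54 from S1 to S2 and 4.50 ± 0.54 from S1 to S4 (log2, SE, limma adjusted p = 0.00013 and 7.8e-07). In LR the same unigene was at 1.69, 0.49 and 1.01 FPKM at S1 and at 2.95, 3.24 and 3.13 FPKM at S4. TRINITY_DN92350_c2_g3 went from 1.12, 0.69 and 0.83 FPKM to 11.8, 11.1 and 6.11 FPKM from S1 to S2 in LB, a change of 2.84 ± 0.47 (limma adjusted p = 0.00018). TRINITY_DN93695_c0_g2 went from 19.2, 3.06 and 10.6 FPKM at S1 to 189, 135 and 104 FPKM at S4 in LB, a change of 3.92 ± 0.44 (limma adjusted p = 2.6e-07). In TRINITY_DN67050_c1_g4 and TRINITY_DN93695_c0_g2 the LB mean rose at each stage up to S5. In TRINITY_DN92350_c2_g3 it did not, with LB libraries at 16.3, 15.4 and 20.2 FPKM at S3, 37.2, 11.1 and 5.58 FPKM at S4 and 57.6, 18.8 and 54.4 FPKM at S5, which overlap.

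TRINITY_DN98616_c1_g2 showed a dip in LB instead. It went from 35.0, 39.1 and 50.6 FPKM at S1 to 9.46, 9.58 and 4.99 FPKM at S2, 3.19, 1.7 and 2.71 FPKM at S3 and 14.9, 14.8 and 19.0 FPKM at S4, and stood at 176, 152 and 176 FPKM at S5. It fell by 2.34 ± 0.40 on the log2 scale from S1 to S2 and rose by 2.49 ± 0.40 from S3 to S4 (limma adjusted p = 0.00022 and 0.002), and the second call was lost without LB3-2. TRINITY_DN100490_c3_g1 went from 24.9, 16.3 and 19.0 FPKM to 4.28, 6.12 and 7.86 FPKM from S1 to S2 in LB and fell by 1.66 ± 0.37 on the log2 scale (limma adjusted p = 0.0035), a call that was lost without LB1-1, LB1-3, LB2-1 or LB2-2.

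In LR the largest early changes were upward in 2 of the most abundant unigenes. TRINITY_DN80199_c7_g1 went from 74.3, 53.6 and 109 FPKM at S1 to 521, 837 and 1440 FPKM at S4, a change of 3.49 ± 0.70 (log2, SE, limma adjusted p = 0.00088). TRINITY_DN91609_c3_g3, of another component, went from 101, 59.6 and 110 FPKM to 563, 818 and 1778 FPKM, a change of 3.41 ± 0.65 (limma adjusted p = 5e-04). Downward calls were 2 in number. TRINITY_DN96575_c0_g1 went from 68.7, 53.3 and 54.9 FPKM at S1 to 28.6, 21.0 and 18.3 FPKM at S4 (-1.38 ± 0.35, limma adjusted p = 0.0065), and TRINITY_DN97138_c2_g2 from 13.8, 16.7 and 10.8 FPKM to 8.57, 6.18 and 4.79 FPKM (-1.04 ± 0.27, limma adjusted p = 0.008). Neither downward call held after scaling, where the changes were -0.59 and -0.29, and both were lost without LR4-3, among other libraries. TRINITY_DN77055_c1_g2 rose from S1 to S4 in both species, by 2.72 ± 0.42 in LB and 3.22 ± 0.42 in LR (limma adjusted p = 2.1e-05 and 7.1e-06).

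Whether these early changes differed between the species was tested by the interaction of species and stage. For S1 to S2 none of the 200 was called in limma, where 1.45% of all unigenes were, and for S3 to S4 none was called, where 0.0405% of all were. At an unadjusted p under 0.05 in limma the counts were 20 and 17, and here too all unigenes were not counted and nothing is read from them. The SE of such a difference had a median of 0.60 log2 units over the 200. Estimates over the 200 ran from -2.48 to 2.19 log2 units for S1 to S2 and from -3.75 to 2.41 for S3 to S4. None of these was called, so with 3 libraries per group even differences well above 2-fold could go undetected.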

How the data were processed

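The authors trimmed reads with Cutadapt, assembled them with Trinity, clustered transcripts with Corset and deposited FPKM per unigene and library, computed from uniquely located reads. Read counts and unigene lengths were not used here. From the steps in low FPKM values, depth ranged from 0.655 to 1.33 of that of LB1-1, and counting error was not computed. All 210 values compared with the study's supplement equalled the column of the code used here, and 6 equalled that of the sample title.

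FPKM was not rescaled. The 111217 unigenes that reached 1 FPKM in 3 or more libraries were fitted as log2(FPKM + 0.5) in R 4.3.3 with limma 3.58.1 (eBayes with trend and robust), with 10 groups over 30 libraries and 20 residual degrees of freedom. Benjamini-Hochberg adjustment of the two-sided p was made within each comparison. Libraries of a group came from different trees, and p-values measure the spread between these. The fits were tested on simulated data.

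The 200 unigenes and the lists were chosen with earlier results of these data known. Named are members of a readable pathway list, the first 2 and the last by rank, the first left out, the 2 most abundant at S5, and per test up to 2 called higher and 2 lower with the largest difference and no overlap. The alternatives were other offsets, filter, scaling, samples fitted, a replicate block and libraries left out. Scaling before the choice was added after seeing the data.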

Additional observations from a re-analysis of the deposited data

How the results depend on the processing

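A fit to only the libraries of the groups compared left 4 residual degrees of freedom for a pair of groups. It called fewer of the 200, with 44 at S1, 31 at S2, 24 at S3, 15 at S4 and 29 at S5 between LR and LB. Of all unigenes, 23%, 19.6%, 18.4%, 17.2% and 22.9% were called between the species at S1 to S5 in that fit. In LB it called 0 from S1 to S2, 0 from S3 to S4 and 2 from S1 to S4. The shares of all unigenes there were 0.258%, 0% and 5.94%. In LR it called 0 from S1 to S4, where 0.706% of all were called. Median-of-ratios scaling gave 51 at S3 between the species, 35 from S1 to S4 in LB, 43 from S1 to S4 and 2 from S3 to S4 in LR, and 1 for the interaction of S3 to S4. The shares of all unigenes were 32.2%, 15.7%, 9.21%, 0.21% and 0.1%, in that order. Without LB4-3 and LB5-2 together the counts were 14 from S1 to S2 in LB, 1 from S3 to S4 in LR and 2 for the interaction of S1 to S2. Of all unigenes, 7.49%, 0.0454% and 1.93% were called there. Leaving out 1 library at a time, the calls between the species ranged from 38 to 57 at S1, 46 to 62 at S2, 52 to 81 at S3, 45 to 76 at S4 and 40 to 55 at S5. In LB they ranged from 4 to 11 from S1 to S2, were 1 throughout from S3 to S4, and ranged from 15 to 26 from S1 to S4. In LR they were 0 from S1 to S2 and from S3 to S4 and ranged from 9 to 17 from S1 to S4, and each interaction gave 0 to 1. Applying the rule again, 43 of the 200 were taken again without the FPKM minimum, 119 without the limit on S3 minus S2, 105 after scaling, 191 and 188 with offsets of 0.1 and 1, and 137 to 196 without 1 library.

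Libraries with the same number in different stages of a species shared little (correlations of their deviations from -0.10 to 0.23 over 60 pairs, median 0.04). Those with other numbers ran from -0.24 to 0.26 over 120 pairs, with a median of -0.02. The numbers were not treated as pairs, and these values cannot show whether stages shared trees. A replicate block gave 54, 58, 79, 63 and 51 calls between the species at S1 to S5, 9, 1 and 23 for S1 to S2, S3 to S4 and S1 to S4 in LB, 0, 0 and 13 in LR, and 0 for both interactions. Of all unigenes, 30.9%, 30.7%, 32.1%, 33.3% and 33.1% were called between the species with the block. The other shares were 6.24%, 0.227% and 17.2% in LB, 0.415%, 0.0405% and 10.9% in LR, and 1.41% and 0.0342% for the interactions. Of 51 named differences none changed direction in 36 refits (offsets, filter, scaling, block and libraries left out), in which calls were kept 1730 times and lost 106 times. Leaving out a library of a group outside the comparison cannot change the difference itself, so many of these refits could not turn a direction. Median-of-ratios scaling alone lost 12 of the 51 calls. The named differences were not read from the fit to only the libraries compared. FPKM alone sets no limit for counting error, and with 3 libraries per group a change of 2-fold was often not detectable.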

Other observations

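The 200 unigenes shared their assembly components with 386 others, in 147 components. Of these 386, 45 met both conditions of the choice, and 22 of the 45 (48.9%) were highest at S5 in both species, against 15.0% of all unigenes that met the conditions. Unigenes of a component can share sequence, and reads divided between them were not measured here.

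For unigenes that were lower in LR, the other unigenes of the component were read as well. Of the 20 called lower in LR at all 5 stages, 15 had others in their component, and in 1 of the 15 another unigene was at a mean of 5 FPKM or more in LR at S5 and at 2-fold or more of its LB mean. Among the 91 called at no stage, 75 had others and 18 of these had such a unigene. Over all 200, 161 had others and 30 of these had such a unigene. The counts use FPKM as deposited, on which the LR minus LB median of all unigenes tested was -0.26 log2 units at S5. Why the counts differ was not tested. For TRINITY_DN79728_c2_g2, at 518 FPKM in LB and 6.57 FPKM in LR at S5 on average, the other unigene of its component, TRINITY_DN79728_c2_g1, was at 578 FPKM in LB and 171 FPKM in LR.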
